A study of Mus musculus with 16 samples.

Results

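In all, 10 named transcripts were followed through oocyte maturation in WT and Psma7 cKO mice: the mRNA decay adaptors Zfp36l1, Zfp36l2, Ythdf2 and Ythdf3, the poly(A) binders Pabpn1l, Pabpc1 and Pabpc1l, and the deadenylase subunits or enzymes Pan2, Pan3 and Parn. They were chosen by name for their roles in maternal mRNA turnover, and all 10 were found among the 27987 gene names of the expression table, each with 1 entry. The study sequenced GV oocytes, which are arrested in meiotic prophase, and eggs labelled MII, collected after ovulation, with 4 libraries in each of 4 groups. The paper reports that part of the ovulated cKO oocytes were arrested before MII, some of them at the GV stage. Whether the cKO egg pools held such cells was not tested. WT females were compared with females of the genotype Zp3-Cre; Psma7 flox/flox, in which the Zp3 promoter drives Cre in growing oocytes, so that Psma7, a subunit of the 20S proteasome core, is lost from oocytes and kept in follicle cells. All females were 3 to 4 weeks old and received 5 IU PMSG. GV oocytes were taken 44 h later, whereas for eggs hCG was given at 44 h and eggs were collected 14 to 16 h after it and freed of cumulus cells with 0.3% hyaluronidase. The sample labels give 5 oocytes per library, whereas the paper's methods give 10 embryos per sample. Whether the pools came from separate females is not stated in the labels, so p-values measure the spread between these pools.

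Oocytes stop transcribing before they resume meiosis, and from then on the stored maternal mRNAs are translated, deadenylated or degraded without being replaced. Decay adaptors bind marks or elements in an mRNA and bring deadenylases to it: ZFP36-family proteins recognise AU-rich elements in the 3' UTR, and YTHDF proteins read N6-methyladenosine (m6A). Poly(A)-binding proteins coat the tail and either shield it or recruit deadenylases, and the PAN2-PAN3 complex and PARN are among the enzymes that shorten tails. Some stored mRNAs gain a longer tail during maturation through a cytoplasmic polyadenylation element (CPE) near the poly(A) signal.

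Expression was given as FPKM, the fragments per kilobase of transcript and per M mapped fragments, which can be compared between genes because it is scaled for length. An FPKM value is a share of its library, so the total RNA per oocyte, which differs between stages, is not in it. cDNA was primed with oligo-dT, so a longer tail and more molecules of a transcript cannot be told apart, nor can fewer cells in a pool and less RNA per cell. The libraries held an estimated 10.5 to 15.7 M fragments. Psma7 itself was at 165 ± 25.3 FPKM (SD, n = 4) in WT GV oocytes against 14.6 ± 2.82 in cKO, and at 126 ± 32.1 in WT eggs against 39.7 ± 20.2 in cKO, where its values were 13.6, 50.3, 35 and 59.9 FPKM in replicates 1 to 4. Every cKO library was below every WT library of its stage. All 12 oocyte markers examined were at a mean of at least 1 FPKM in each group. Of 19 cumulus and granulosa markers found, Serpine2 made up most of the summed level (243 to 539 FPKM over all libraries, higher in eggs). The others together held 18 to 24.5 FPKM in each library. Of these, Cyp19a1 was at 6.20 to 10.2 FPKM in GV oocytes and higher in eggs, at 12.0 to 15.2. Over all libraries Kitl was at 3.24 to 7.16 FPKM and Nr5a2 at 1.94 to 3.94. Cyp11a1 was at 0.973 to 2.63 FPKM in GV oocytes and lower in eggs, at 0.273 to 0.899. None of Amh, Foxl2, Fshr, Inha, Inhba and Inhbb exceeded 0.862 FPKM. Among these, Fshr was at 0.363 to 0.862 FPKM in GV oocytes and at 0 to 0.0343 in eggs. The part of the cumulus and granulosa markers in the results was not tested. WT GV replicate 3 was the lowest GV library for Pabpc1l, Ythdf2, Pan2 and Parn, and several, but not all, of the results it bears on are also given without it.

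The 3' ends of the transcripts are shown because the tail is what the products of these genes act on and what the library primer binds. In the GENCODE M21 annotation of GRCm38 (the build named mm10 by the submitters), all 10 had a poly(A) signal, AATAAA or the variant ATTAAA, within the last 50 bases of the annotated transcript, as did 75.6% of 19921 protein-coding genes. A CPE, searched as TTTTAT or TTTTAAT on the transcript strand, lay in the last 100 bases of only 2 of the 10, Pan2 and Pan3, and in 17.8% of all genes. TTTTAAT can share its last letters with AATAAA, as it does in Pan3. Neither the Pumilio element TGTANATA (4.29% of all genes) nor the AU-rich heptamer TATTTAT (4.31%) was found in this window of any of the 10. A match is a run of letters in the annotated end and was not tested as a site. The 30 bases that end with the last poly(A) signal of 5 transcripts follow, with the signal and any CPE in capitals. They were picked to show the 2 ends with a CPE beside the ends of 3 transcripts that rose or fell from GV to MII, and all lie in the 3' UTR.
Pan3 (chr5:147548467-147548496, plus strand): tattTTTTAATAAAgaattgcagaAATAAA
Pan2 (chr10:128321301-128321330, plus strand): tgcttaaaacagcatgTTTTATaaAATAAA
Ythdf3 (chr3:16216993-16217022, plus strand): tcctctttaatctttgagggtttcAATAAA
Ythdf2 (chr4:132184930-132184959, minus strand): gaatatacaaattttttacatttaATTAAA
Pabpc1l (chr2:164050493-164050522, plus strand): cctgctgatcattttgctttatatATTAAA

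The levels of the 10 transcripts in GV oocytes covered over 3 orders of magnitude. Pabpn1l, a poly(A) binder that recruits the deadenylation adaptor BTG4 in oocytes, was the highest in WT GV oocytes at 132 ± 19.6 FPKM (SD, n = 4), followed by Pabpc1l at 90.5 ± 26.1, Ythdf2 at 54.3 ± 17.9, Ythdf3 at 31.1 ± 3.43, Parn at 19.2, Pan2 at 17.9, Pan3 at 5.51, Pabpc1 at 1.65, Zfp36l2 at 0.346 and Zfp36l1 at 0.0580 FPKM. In this order the values of Pabpc1l and Ythdf2 overlapped, as did those of Parn and Pan2, and the other neighbours did not overlap. In cKO GV oocytes the overlapping neighbours were Pabpn1l and Pabpc1l, and Pan2 and Parn. The order differed in eggs: Pabpn1l stayed first at 125 ± 21.3 FPKM in WT and 131 ± 32.0 in cKO, and it was followed by Ythdf3 at 40.9 and 34.6, Ythdf2 at 22.2 and 21.9 and Pan2 at 17.2 and 16.0. Pabpc1l had rank 7 in WT eggs at 7.84 ± 1.69 FPKM, below Pan3 and Parn without overlap, whereas in cKO eggs, at 14.5 ± 5.50, its values overlapped those of Pan2 and Parn.

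**Figure D1:**
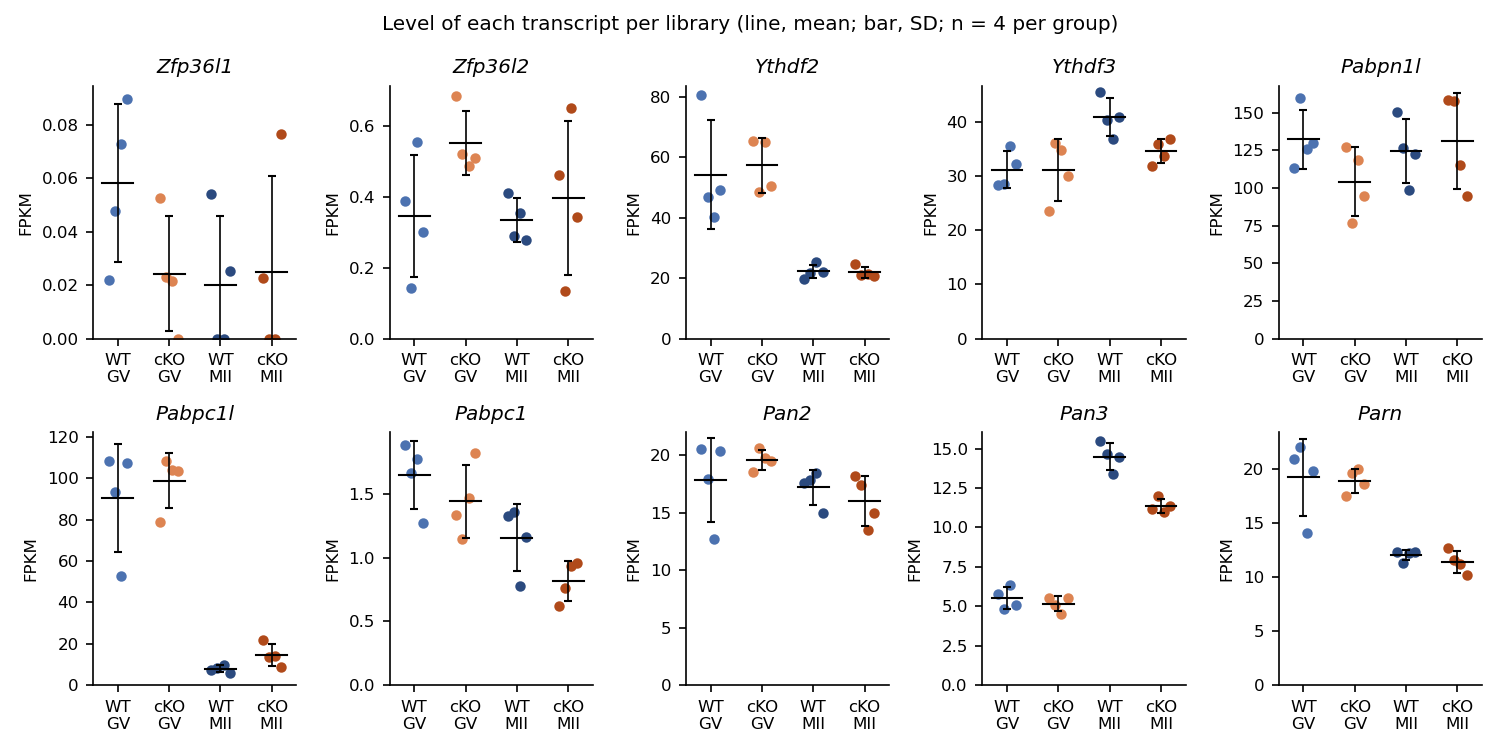
FPKM (y axis, linear, its range set for each transcript) of the 10 transcripts in the 4 WT GV, 4 cKO GV, 4 WT MII and 4 cKO MII libraries; points are libraries, horizontal lines are means and bars are SD. Pabpc1l and Ythdf2 are lower in all 8 egg libraries than in all 8 GV libraries, Pan3 is higher in all egg libraries, and Zfp36l1 and Zfp36l2 stay below 1 FPKM.

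The ZFP36-family adaptors were scarcely detected. Zfp36l2, whose product binds AU-rich elements and brings CCR4-NOT to them, was at 0.141 to 0.554 FPKM in WT GV oocytes, 0.488 to 0.685 in those of cKO females, while WT eggs held 0.279 to 0.412 and cKO eggs 0.133 to 0.651. With its transcript of 3530 bases these values came to 6 to 31 fragments per library, and the groups overlapped. Zfp36l1, a paralog of the same function, was listed at 0 in 5 of 16 libraries and at no more than 0.0894 FPKM in the others, which is 0 to 3 fragments. A count of 0 fragments allows up to 3 fragments, or 0.0641 to 0.0953 FPKM for Zfp36l1 at these depths, by counting error alone. Zfp36l1 shares 55.9% of its exonic bases with the opposite-strand lincRNA Gm26669, and Smart-seq2 reads do not mark the strand. Neither transcript reached the mean of 1 FPKM set for the tests, and neither was tested.

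Between genotypes, none of the 8 transcripts tested in GV oocytes passed the threshold, an adjusted p under 0.05 in limma on log2 of FPKM with values below 1 set to 1. Over all 11062 entries tested, 0.0994% were called higher and 0.0181% lower in cKO. At an unadjusted p under 0.05 there was 1, Pabpn1l, with 113, 159, 126 and 130 FPKM in WT and 127, 76.4, 118 and 94.9 in cKO. The genotypes overlapped, and the log2 fold change was -0.36 (SE 0.16, limma adjusted p = 0.461). It was -0.22 without cKO GV replicate 2, and the unadjusted p was also above 0.05 without cKO GV replicate 4 or any one of WT GV replicates 2, 3 and 4. For Ythdf2, Ythdf3, Pan2, Pan3 and Parn the 95% intervals of the log2 fold change together ran from -0.39 to 0.55. Pabpc1l was at 108, 93.5, 52.7 and 107 FPKM in WT and 79.0, 109, 104 and 104 in cKO GV oocytes, an overlap with a log2 fold change of 0.17 (95% interval -0.29 to 0.64). That value turned to -0.07 without WT GV replicate 3, the lowest of the 8. For Pabpc1 it was -0.20 (limma adjusted p = 0.773). No member of the group was over 3-fold higher or lower in cKO GV oocytes by group means, a size that 0.0362% and 0.0271% of entries tested passed upward and downward.

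In eggs, 1 of the 7 transcripts tested was called lower in cKO and none higher, against 1.49% of 9492 entries called lower and 6.53% higher. The call was Pan3, the adaptor subunit that ties the PAN2 deadenylase to poly(A)-binding protein. Pan3 stood at 15.5, 14.6, 13.4 and 14.5 FPKM in WT eggs and at 11.1, 12.0, 10.9 and 11.3 in cKO eggs. Every cKO egg library was below every WT egg library, and the log2 fold change was -0.35 (SE 0.08, limma adjusted p = 0.0373), a mean 1.28-fold lower. The direction was the same in all 17 alternative fits, but the call was lost without a filter on low values (adjusted p = 0.0931), with replicate number as a block (0.0828) and on leaving out any single egg library except cKO MII replicate 2, at adjusted p up to 0.112. The catalytic subunit Pan2 was at 15.0 to 18.4 FPKM in WT and 13.5 to 18.2 in cKO eggs, which overlapped (log2 fold change -0.11, 95% interval -0.37 to 0.16, limma adjusted p = 0.580).

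Pabpc1l, the embryonic poly(A)-binding protein of oocytes and early embryos, had the largest fold difference between genotypes among the transcripts tested in eggs, without passing the threshold. It was at 7.42, 8.27, 9.88 and 5.81 FPKM in WT eggs and at 21.8, 13.7, 13.9 and 8.49 in cKO eggs. All cKO eggs but replicate 4 were above all WT eggs, and replicate 4 lay within the WT range. The log2 fold change was 0.83 (SE 0.27, 95% interval 0.22 to 1.44, limma adjusted p = 0.0844), or 1.85-fold by group means, under the 3-fold size that 1.76% of entries passed upward and 0.0211% downward. It was called when all 16 libraries were fitted together (adjusted p = 0.0414) and when cKO MII replicate 4 was left out (0.0440). Leaving out cKO MII replicate 1 gave a log2 fold change of 0.61. Psma7 in the same 4 cKO eggs was lowest in replicate 1, where Pabpc1l was highest, and highest in replicate 4, where Pabpc1l was lowest. That order was not particular to Pabpc1l. Ythdf2, Pabpn1l and Parn were also highest in replicate 1 and lowest in replicate 4 of the cKO eggs, whereas the remaining members were not. The part of Psma7 in the difference was not tested.

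None of the other members tested passed the threshold between genotypes in eggs. At an unadjusted limma p under 0.05, 1 of the 7 tested was higher in cKO eggs (Pabpc1l) and 2 were lower (Pan3 and Ythdf3). Of all entries tested, 20.6% were higher and 8.80% lower at that level. Ythdf3, a reader of m6A that acts with YTHDF2, was at 36.9 to 45.5 FPKM in WT and 31.9 to 36.9 in cKO eggs. The highest cKO egg lay just under the lowest WT egg, and the log2 fold change of -0.24 (SE 0.08) did not pass (limma adjusted p = 0.0975, and 0.0627 to 0.236 over the alternatives). Ythdf2, the reader that brings methylated mRNAs to CCR4-NOT, was at 22.2 ± 2.30 FPKM in WT and 21.9 ± 1.88 in cKO eggs, and its 95% interval of log2 fold change was -0.24 to 0.20. That of Parn, a deadenylase that also trims noncoding RNAs, was -0.28 to 0.12, and that of Pabpn1l -0.36 to 0.48. Pabpc1, the poly(A) binder of somatic cells, was at 0.780 to 1.36 FPKM in WT eggs and 0.618 to 0.955 in cKO eggs, values that overlapped and fell below the mean needed for a test. Its reads could be divided among near-identical retrocopies, which was not tested, and its level is uncertain.

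**Figure D2:**
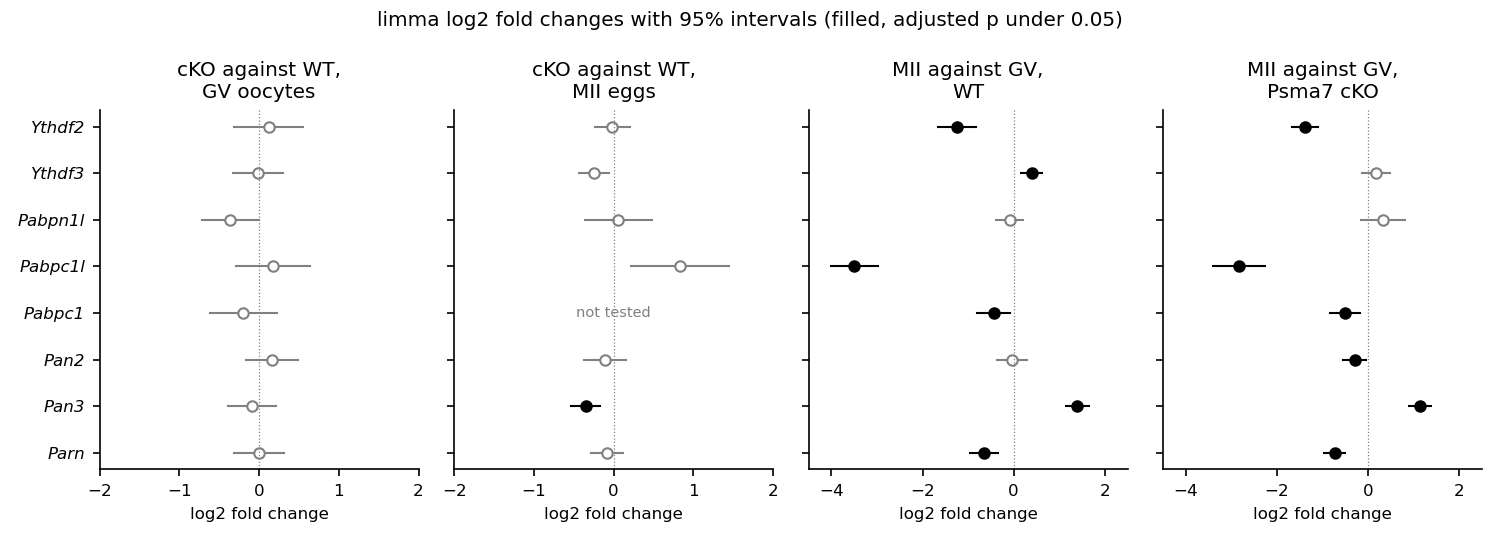
Log2 fold changes (x axis) with 95% intervals from limma for the 8 transcripts tested in at least 1 comparison, in GV oocytes, in eggs, and from GV to MII in WT and in Psma7 cKO; filled points have an adjusted p under 0.05. In the genotype panels 1 point is filled, Pan3 in eggs, and in the stage panels Pabpc1l lies farthest to the left and Pan3 farthest to the right.

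From GV oocytes to eggs, the levels of most of the group changed in both genotypes. In WT, 2 of 8 transcripts tested rose and 4 fell, where 26.1% of 10475 entries rose and 52.4% fell. In cKO, 1 of 8 rose and 5 fell, where 23.0% of 10748 entries rose and 51.0% fell. These shares are near the background. The median log2 fold change over all entries was -0.44 in WT and -0.42 in cKO. Rescaling the libraries by the median ratio moved those medians by 0.47 and 0.42, so values after rescaling are given for each transcript tested.

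Pabpc1l fell the most. WT GV oocytes held 52.7 to 108 FPKM and WT eggs 5.81 to 9.88, and cKO GV oocytes held 79.0 to 109 FPKM and cKO eggs 8.49 to 21.8. The stages did not overlap in either genotype. The log2 fold change was -3.50 in WT (SE 0.23, limma adjusted p = 1.63e-07) and -2.84 in cKO (SE 0.25, adjusted p = 1.08e-05), and -3.04 and -2.42 after rescaling. The fall was 11.5-fold in WT and 6.82-fold in cKO by group means, and Pabpc1l was the only member of the group to fall over 10-fold in WT, as 3.79% of entries did. WT eggs held 8.20, 9.13, 10.9 and 6.42% of the WT GV mean, and cKO eggs 22.1, 13.9, 14.1 and 8.59% of the cKO GV mean. The difference between these falls, the genotype by stage interaction, was 0.66 on the log2 scale (SE 0.37, limma adjusted p = 0.382), and 0.90 (adjusted p = 0.183) without WT GV replicate 3.

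Ythdf2 and Parn also fell in both genotypes. Ythdf2 was at 80.6, 47.0, 40.4 and 49.2 FPKM in WT GV oocytes and at 19.7, 21.7, 25.3 and 22.2 in WT eggs, a log2 fold change of -1.24 (SE 0.19, limma adjusted p = 9.73e-05). In cKO it went from 65.3, 48.5, 65.2 and 50.4 FPKM to 24.7, 20.9, 21.4 and 20.6, a log2 fold change of -1.38 (SE 0.13, adjusted p = 1.28e-05). After rescaling these changes were -0.79 and -0.96. Every egg library was below every GV library, and the fall passed in every alternative fit. WT eggs kept 36.3 to 46.6% and cKO eggs 35.9 to 43.0% of the GV mean, which overlap. Parn fell by 0.66 on the log2 scale in WT (limma adjusted p = 0.00111) and by 0.73 in cKO (0.000141), and the stages did not overlap. After rescaling its change was -0.20 in WT (adjusted p = 0.156) and -0.31 in cKO (adjusted p = 0.0218). Without WT GV replicate 3, the changes in WT were -1.37 for Ythdf2 and -0.80 for Parn, both past the threshold.

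Pan3 and Ythdf3 were the members that rose. Pan3 was at 5.81, 4.84, 6.34 and 5.07 FPKM in WT GV oocytes and at 5.52, 5.09, 4.53 and 5.55 in cKO GV oocytes, below all eggs of its genotype. The log2 fold change was 1.40 in WT (SE 0.11, limma adjusted p = 8.62e-07) and 1.14 in cKO (SE 0.11, adjusted p = 1.57e-05), and 1.85 and 1.56 after rescaling. WT eggs held 243 to 281% of the WT GV mean and cKO eggs 212 to 232% of the cKO GV mean, without overlap. The interaction was -0.26 on the log2 scale (SE 0.15, limma adjusted p = 0.388). Ythdf3 rose by 0.40 on the log2 scale in WT (SE 0.10, limma adjusted p = 0.00416), from 28.3 to 35.6 FPKM up to 36.9 to 45.5, and by 0.85 after rescaling (adjusted p = 4.98e-05). In cKO the stages overlapped, at 23.6 to 36.0 and 31.9 to 36.9 FPKM, and the log2 fold change was 0.17 (SE 0.14, adjusted p = 0.291), or 0.59 after rescaling (adjusted p = 0.00561) and 0.04 without cKO GV replicate 1. The interaction for Ythdf3 was -0.23 (limma adjusted p = 0.541).

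Pabpn1l and Pan2 changed least in WT before rescaling. Pabpn1l went from 132 to 125 FPKM, with overlapping stages and a log2 fold change of -0.09 (95% interval -0.39 to 0.21), and Pan2 from 17.9 to 17.2 FPKM, with a log2 fold change of -0.04 (95% interval -0.37 to 0.30), or -0.19 (limma adjusted p = 0.104) without WT GV replicate 3. After rescaling both were called higher in WT eggs, Pabpn1l at 0.36 (limma adjusted p = 0.0401) and Pan2 at 0.42 (0.0137). In cKO, Pabpn1l changed by 0.33 (adjusted p = 0.183), or 0.75 after rescaling (adjusted p = 0.00757). Pan2 fell in cKO by 0.30 on the log2 scale (adjusted p = 0.0374), from 18.5 to 20.6 FPKM down to 13.5 to 18.2. That call was lost with replicate number as a block (0.0786), without a filter on low values (0.0712), with all 16 libraries in one fit (0.0627) and without any one of cKO GV replicates 2, 3 and 4 and cKO MII replicates 3 and 4 (0.0942 without cKO MII replicate 3), and the change turned to 0.12 after rescaling. Pabpc1 fell by 0.44 in WT (adjusted p = 0.0283) and by 0.51 in cKO (0.00969), and neither call held after rescaling, at -0.04 (adjusted p = 0.863) and -0.23 (0.177). With a floor of 0.1 FPKM the change in cKO was -0.82. In WT the call was also lost without any one of WT GV replicates 1, 2 and 3 and WT MII replicates 3 and 4, at adjusted p up to 0.0891. Of the 16 alternative fits that held Pabpc1, 8 called the fall in WT and 15 called it in cKO.

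None of the 8 transcripts had a genotype by stage interaction past the threshold, at which 1.07% of 10615 entries were called higher and 0.188% lower. There was also none at an unadjusted limma p under 0.05, a level that 12.7% of entries passed upward and 5.03% downward. The smallest adjusted p was that of Pabpc1l. No alternative fit called an interaction for any of them.

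**Figure D3:**
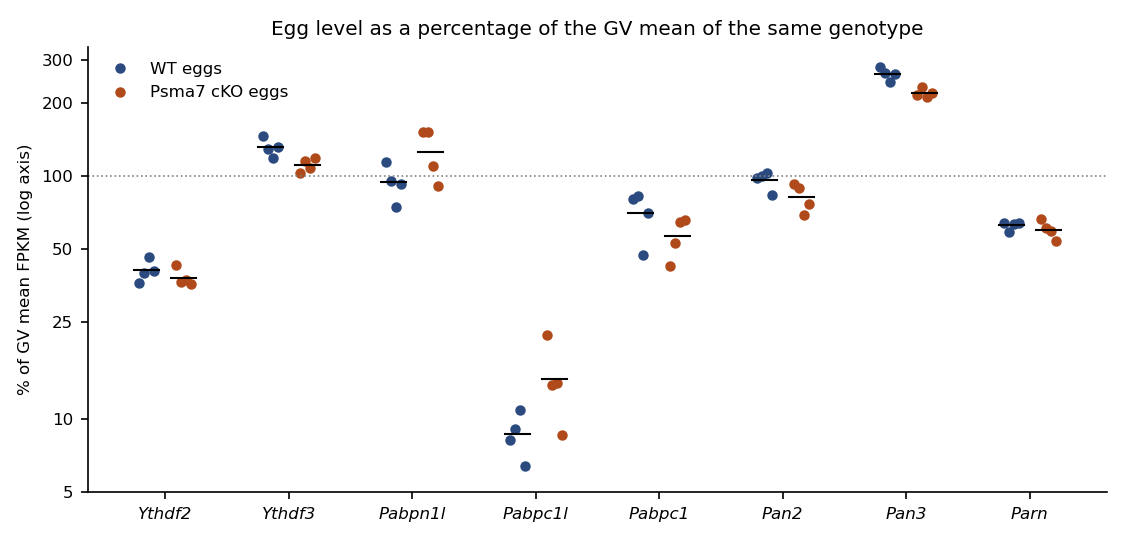
Level in each egg library as a percentage of the mean FPKM of the GV oocytes of the same genotype (y axis, log scale; dotted line, 100%), for the 8 transcripts above 1 FPKM in GV oocytes; points are libraries and lines are means. Pabpc1l lies at 6.42 to 10.9% in WT and 8.59 to 22.1% in cKO eggs, and Pan3 at 243 to 281% and 212 to 232%.

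Partner transcripts were also compared by their ratio within a library, which does not depend on how the library was scaled as long as both are above the floor. Only 3 of the 4 planned ratios could be formed, as both ZFP36 transcripts lay below that floor, 1 FPKM, throughout. The Ythdf2/Ythdf3 ratio was 1.14 to 2.85 in WT and 1.35 to 2.77 in cKO at the GV stage, and 0.433 to 0.685 and 0.558 to 0.774 at MII. Ythdf2 was thus the more abundant reader in all GV libraries and Ythdf3 in all egg libraries. The Pabpc1l/Pabpc1 ratio spanned 29.7 to 84.4 in GV oocytes and 5.00 to 9.88 in eggs of WT females. For cKO females it spanned 56.9 to 95 and 8.49 to 21.8, with Pabpc1 at the floor in all 4 cKO egg libraries, as in 1 WT egg library, so that these ratios equal the Pabpc1l level, move with scaling and are lower bounds. Without a floor, the ratio was 5.00 to 12.7 in WT eggs and 8.89 to 35.3 in cKO eggs. The Pan2/Pan3 ratio went from 2.01 to 4.02 down to 1.03 to 1.38 in WT and from 3.35 to 4.36 down to 1.24 to 1.64 in cKO. The FPKM values of the 2 transcripts were thus closer to each other in eggs.

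In all 6 of these comparisons of stages GV oocytes and eggs did not overlap. Each had a two-sided exact permutation p of 0.0286, the smallest that 4 libraries against 4 allow, and 0.0571 after adjustment over the 12 tests made. The log2 ratio changed by -1.64 in WT and -1.55 in cKO for Ythdf2/Ythdf3, by -3.06 and -2.33 for Pabpc1l/Pabpc1 (-2.97 and -2.02 without a floor) and by -1.44 in both for Pan2/Pan3. These changes follow from the stage changes of the single transcripts given above and are not separate evidence. How often other pairs of transcripts were without overlap between stages was not counted. Between genotypes the ratios overlapped at both stages. For Pabpc1l/Pabpc1 in eggs, taken without a floor, the log2 ratio was 2.77 ± 0.61 (SD, n = 4) in WT and 4.09 ± 0.82 in cKO (exact permutation p = 0.0571, adjusted p = 0.0980).

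**Figure D4:**
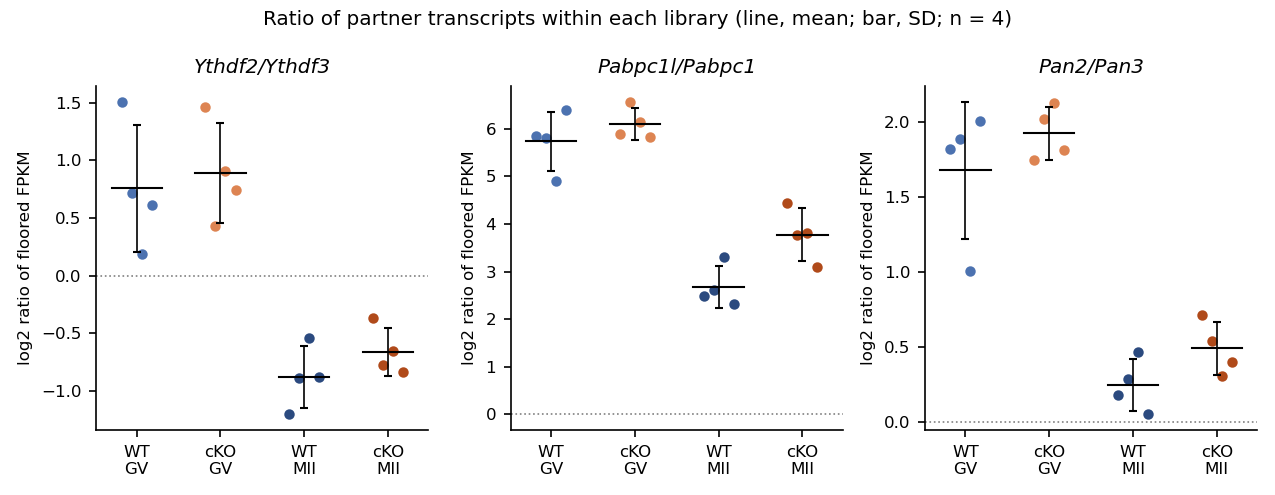
Log2 ratio of the FPKM of partner transcripts within each library, with values below 1 FPKM set to 1 (y axis; dotted line, equal levels), in the 4 groups; points are libraries, lines are means and bars are SD. GV oocytes and eggs are apart in all 3 ratios, and Ythdf2/Ythdf3 crosses from above to below the line of equal levels. Pabpc1 is at the floor in all 4 cKO and 1 of the WT egg libraries, where its ratio is a lower bound.

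The make-up of each family changed with these levels. Pabpc1l was set beside Pabpc1 and Pabpc4, another cytoplasmic poly(A) binder that was added after its values were seen. Pabpc1l made up 50.7 ± 5.89% (SD, n = 4) of the summed FPKM of the 3 in GV oocytes of WT and 51.3 ± 1.75% in those of cKO females, against 12.7 ± 2.39% and 21.3 ± 5.46% in their eggs. Pabpc4 held 48.3% in WT and 47.9% in cKO GV oocytes and 85.4% and 77.4% in eggs. The sum of the 3 at the GV stage was 125 to 201 FPKM in WT and 161 to 204 in cKO, and at MII 56.9 to 65.4 and 59.0 to 78.7. Of the 3 YTHDF readers, Ythdf2 made up 55.8 ± 6.74% in WT and 57.1 ± 4.97% in cKO GV oocytes and 33.0 ± 3.84% and 36.1 ± 3.16% in eggs, while Ythdf3 went from 33.7% to 60.6% in WT and from 31.3% to 57.0% in cKO. The rest was Ythdf1, likewise added after its values were seen, which had the smallest share in each group.

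**Figure D5:**
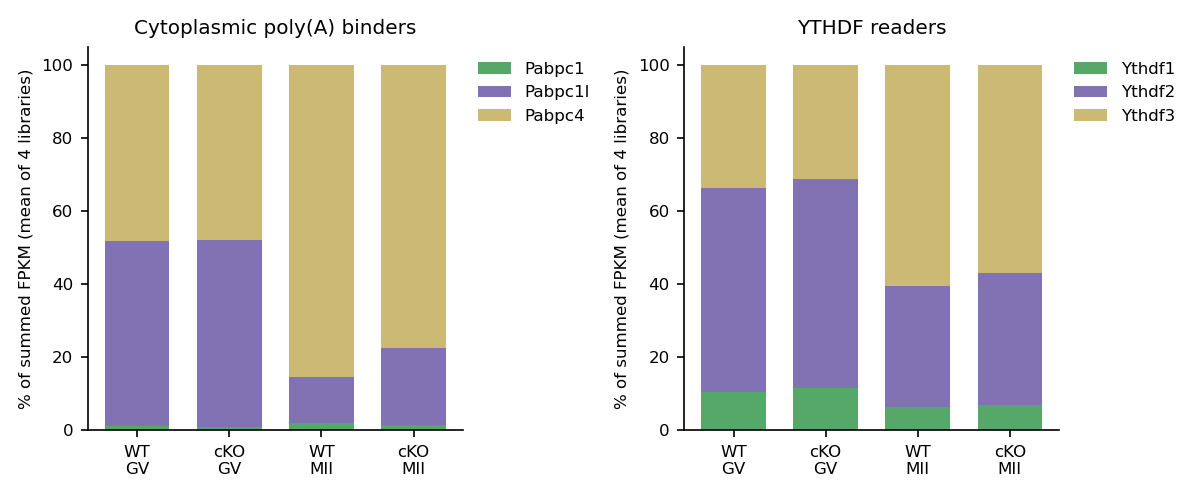
Mean share of the summed FPKM (y axis, percent, 4 libraries per group) taken by each of 3 cytoplasmic poly(A) binders and each of 3 YTHDF readers. The share of Pabpc1l is 50.7% and 51.3% in WT and cKO GV oocytes and 12.7% and 21.3% in eggs, and Ythdf3 has the largest share of the readers in eggs of both genotypes.

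Genes that act beside these 10 were counted by list. The lists held 17 genes of the CCR4-NOT deadenylase and its recruiters (18 entries in GV oocytes, Cnot8 having 2), 16 m6A writers, erasers and other readers, 17 other poly(A) binders and partners, 22 other 3' UTR-binding proteins and 7 genes of terminal uridylation. Over the 5 lists 69 entries passed the filter in GV oocytes and 67 in eggs, and limma called 0 of them between genotypes at either stage. The smallest limma adjusted p, in the deadenylase list at both stages, was 0.302 in GV oocytes and 0.0501 in eggs, the latter just over the threshold. The lists were not followed through the alternative fits. At an unadjusted p under 0.05, 4 of the 69 were higher and 0 lower in cKO GV oocytes, where 7.62% and 3.06% of all entries tested were. In cKO eggs 8 of the 67 were higher and 10 lower, where 20.6% and 8.80% of all entries were. From GV to MII in WT, where 26.1% of all entries rose and 52.4% fell, 5 entries of the deadenylase list rose and 6 fell of 18 tested, with a median log2 fold change of -0.05, against -0.44 for all entries. The m6A list had 8 rising and 5 falling of 15 (median 0.36), the poly(A) binder list 6 and 4 of 13 (median 0.12), the 3' UTR binders 8 and 5 of 16 (median 0.34) and the uridylation list 4 and 2 of 6 (median 0.48). In cKO, where 23.0% of all entries rose and 51.0% fell, the lists in this order had 6 rising and 6 falling of 18, 3 and 5 of 15, 5 and 4 of 13, 9 and 5 of 16, and 3 and 1 of 6. Pabpc4 fell by 0.66 on the log2 scale in WT and by 0.84 in cKO (limma adjusted p = 6.69e-05 and 3.05e-05), less than Pabpc1l in both.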

How the data were processed

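A total of 16 RNA-seq libraries, from GV oocytes and eggs of either genotype, were grouped by genotype, stage and replicate as given in the sample labels. Oligo-dT-primed Smart-seq2 cDNA was sequenced, and the authors deposited expression as FPKM. TopHat2 2.1.1, Cufflinks 2.2.1 and mm10 are named in the submitters' processing notes, and the annotation used is not given in the sources used here. The deposited table held 28618 entries and 0 ERCC entries, so no scaling to a spike-in was made. Fragment totals were estimated from the steps between FPKM values below 0.6, and a share or floor derived from them covers counting error only.

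Values below 1 FPKM were set to 1 and log2-transformed. Entries with a mean of at least 1 FPKM in the libraries of a comparison were fitted with limma 3.58.1 in R 4.3.3 (intensity trend, Benjamini-Hochberg adjustment over all entries tested), each comparison on its own 8 libraries and the interaction on 16. The fits were tested on simulated data with known changes. Fold changes on this floored scale understate changes of low transcripts. Fold by group means used the same floor. Ratios within a library were compared by two-sided exact permutation tests over 70 arrangements. Of 16 planned ratio tests 12 could be made, as Zfp36l1 and Zfp36l2 were under the floor throughout. Exact tests were run with scipy 1.17.1 under Python 3.11.15, and figures drawn with matplotlib 3.10.9.

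For 3' ends, the principal protein-coding transcript of each gene in GENCODE M21 was read, the longest where several were tied, and only those with a 3' UTR of at least 100 bases were used. The transcripts and the gene lists were chosen with earlier results of these data known. All 10 transcripts were named whatever their values, as was Psma7. Of the lists, genes past the threshold between genotypes were to be named, and there were none. As alternatives the floor was set to 0.1 FPKM or replaced by an added 1 FPKM, the filter was dropped or raised to 5 FPKM, the trend was left out, libraries were rescaled by median ratio or to equal sums, a replicate block was added, one fit took all 16 libraries, and single libraries were left out. For the fold rule, geometric means and thresholds of 2-fold and 5-fold were also tried.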

Additional observations from a re-analysis of the deposited data

Results flagged for a closer look

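Of 40 sets of 4 libraries examined (10 transcripts in 4 groups), 3 held a library far from the other 3 by Dixon's test, and chance alone flags about 1 in 20 groups. Zfp36l2 in cKO GV oocytes was at 0.685 FPKM in replicate 1 and 0.488 to 0.521 in the others. Pabpc1l was at 79.0 FPKM in the same library and 104 to 109 in the other cKO GV oocytes. Parn in WT eggs was at 11.3 FPKM in replicate 2 and 12.2 to 12.3 in the others.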

How the results depend on the processing

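The stage changes of Pabpc1l, Ythdf2 and Pan3 in both genotypes and of Ythdf3 in WT kept their direction and passed in all 17 alternative fits. Depth limits Zfp36l1, Zfp36l2 and Pabpc1. Without a filter on low values most residual variances were 0 and the moderated variances are unreliable. Rescaling by the median ratio gave 4 members higher and 2 lower from GV to MII in WT, and 3 and 3 in cKO. It turned the log2 fold change of Pabpn1l in eggs between genotypes to -0.0089, of Pabpn1l from GV to MII in WT to 0.363, and of Pan2 to 0.418 in WT and 0.123 in cKO. In eggs the members called higher in cKO were 1 with all 16 libraries in one fit, and those called lower 0 without a filter and 0 with replicate number as a block. The block also ended the fall of Pan2 in cKO, and changed no other call. Same-numbered libraries did not deviate together (correlations -0.496 to 0.285).

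Leaving out single libraries gave 0 to 1 members higher and 0 to 1 lower in cKO eggs, 3 to 4 lower from GV to MII in WT and 4 to 5 in cKO. The log2 fold change between genotypes in GV oocytes then ran from -0.0073 to 0.325 for Ythdf2, -0.090 to 0.114 for Ythdf3, -0.0686 to 0.278 for Pabpc1l and -0.146 to 0.0696 for Parn, and that of the Ythdf2/Ythdf3 ratio from -0.0629 to 0.382. In eggs it ran from -0.0775 to 0.0453 for Ythdf2 and -0.0484 to 0.206 for Pabpn1l. From GV to MII in WT it ran from -0.187 to 0.0168 for Pabpn1l and -0.192 to 0.0396 for Pan2, and the interaction from -0.174 to 0.0507 for Pabpc1 and -0.151 to 0.0645 for Parn. The cause of these changes was not tested. With 3 libraries against 4 the exact test of a ratio cannot go below 0.0571, and over sign changes of 4 differences not below 0.125.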
